A study of Mus musculus with 8 samples.

Results

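The genes described here encode the enzymes that build mucin-type O-glycans and finish the chains of glycoproteins and glycolipids in the Golgi: the polypeptide GalNAc transferases, the core and branching enzymes, the galactosyl, GlcNAc and GalNAc transferases that lengthen the chains, and the fucosyl and sialyl transferases that cap them. They were chosen by symbol, as mouse genes whose names start with Galnt, C1galt, Gcnt, B3gnt, B3galt, B4galt, B4galnt, Fut, St3gal, St6gal or St8sia. Among the 23318 genes in the files, 73 carried such a symbol, 71 of them enzyme genes and 2 antisense RNAs. In 4 or more libraries 49 enzyme genes reached a value of 10, and with Fut2, which was kept whatever its level, this gave 50 members. Of the 49, 41 reached 10 in all 8 libraries.

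Total RNA was sequenced from mouse small intestinal epithelium sorted by flow cytometry on CD24, a mucin-like surface glycoprotein. CD24Mid cells, which the series text also calls CD24low, gave 4 libraries (titles 1, 3, 5 and 7), and CD24Neg cells gave 4 libraries (titles 2, 4, 6 and 8). In both fractions leukocytes positive for CD45 and cells bound by the Ulex europaeus agglutinin I (UEA), a lectin for fucosylated glycans, had been depleted before sequencing. The series text calls the libraries of a fraction biological replicates and places them in a study of 5-hydroxymethylcytosine during intestinal differentiation. No source used here gives the strain, age, sex or genotype of the mice. The lectin depletion bears on these genes directly, since UEA recognises a product of fucosyltransferases, so cells carrying that product were removed from both fractions.

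O-glycosylation of a mucin starts when a polypeptide GalNAc transferase links GalNAc to a serine or threonine of the protein. The core 1 enzyme adds galactose to it, or a core 3 enzyme adds GlcNAc, branching enzymes add GlcNAc at a further position, and the arms grow by alternating GlcNAc and galactose until fucose or sialic acid ends them. In the intestine these chains form most of the mass of the goblet cell mucus and of the glycocalyx on enterocytes. Several family members named by the same symbols work elsewhere, on glycolipids, on N-glycans or on the linker of proteoglycans, and this is said where they are described.

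The values are the authors' normalised expression values per gene, not divided by gene length. The spacing of the low values gave the worth of 1 read as 0.585 to 0.697 in the CD24Mid libraries and 1.07 to 1.77 in the CD24Neg libraries, and depths of 17.5 to 19.6 M reads in CD24Mid, against 12.4 to 20.6 M reads in CD24Neg. Mitochondrially encoded genes took 8.03 to 9.10% of the values in CD24Mid, against 28.3 to 37.4% in CD24Neg, which leaves 15.9 to 17.97 M other reads in CD24Mid, against 8.11 to 14.6 M in CD24Neg, so low values were less precise in CD24Neg. Stem cell markers were higher in CD24Mid for 5 of 5 genes, summing to 44999 to 59019 in CD24Mid, against 1545 to 5029 in CD24Neg. So were 4 of 4 proliferation markers, summing to 14344 to 23603 in CD24Mid, against 1181 to 3623 in CD24Neg. The 5 enteroendocrine markers were all higher too, summing to 3238 to 7361 in CD24Mid, against 495 to 959 in CD24Neg. All 8 enterocyte markers were lower in CD24Mid, summing to 19179 to 29130 in CD24Mid, against 394740 to 715820 in CD24Neg. Of 8 goblet cell markers 5 were lower in CD24Mid and none higher, summing to 52274 to 79751 in CD24Mid, against 184640 to 511190 in CD24Neg. Transcripts of other cells were also present: 7 T lymphocyte markers summed to 115 to 301 in CD24Mid, against 474 to 7716 in CD24Neg, with libraries 2 and 8 high, and 4 plasma and B cell markers summed to 5619 to 14527 in CD24Mid, against 320.5 to 759 in CD24Neg. In such bulk libraries fewer cells of a type and less RNA per cell cannot be told apart.

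Most of the tested transferases that differed were lower in CD24Mid. Of the 49, 31 passed an adjusted p of 0.05 in limma (Benjamini-Hochberg over 12906 tested genes), against 68.3% of all tested genes. There were 11 higher and 20 lower in CD24Mid, where all tested genes had 34.3% higher and 34.0% lower. In 30 of the 49 all libraries of 1 fraction lay above all of the other, against 63.8% of all tested genes. More than 2-fold changes were found for 5 higher members, against 19.9% of all tested genes, and for 12 lower members, against 18.1% of all tested genes. The share of members called was thus close to the background. Lower calls outnumbered higher ones among the members, a split that was not tested against that of all genes. The median log2 fold change of the members was -0.33, and that of all tested genes was 0.02. Fold changes are CD24Mid minus CD24Neg, on the scale of log2(value + 0.5) here and below. The counts by direction depend on where 0 is set. Scaling to totals that leave out the 20 top genes by abundance ("scaling to totals" below) moved the median of all genes by 0.42 by construction, to 0.44, and that of the members to 0.10, so the members' median stayed below that of all genes. It gave 17 members higher and 17 lower, beside 6497 higher and 2842 lower of all genes. Under that scaling the directions of B4galt7, C1galt1c1 and Galnt10, each called lower, turned. B3gnt6 and St8sia1 passed the minimum of 10 only through CD24Neg, so their difference was partly set by the filter. No member reached it in CD24Mid alone, but St6gal1 reached it in 4 CD24Mid libraries and only 1 CD24Neg library.

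**Figure D1:**
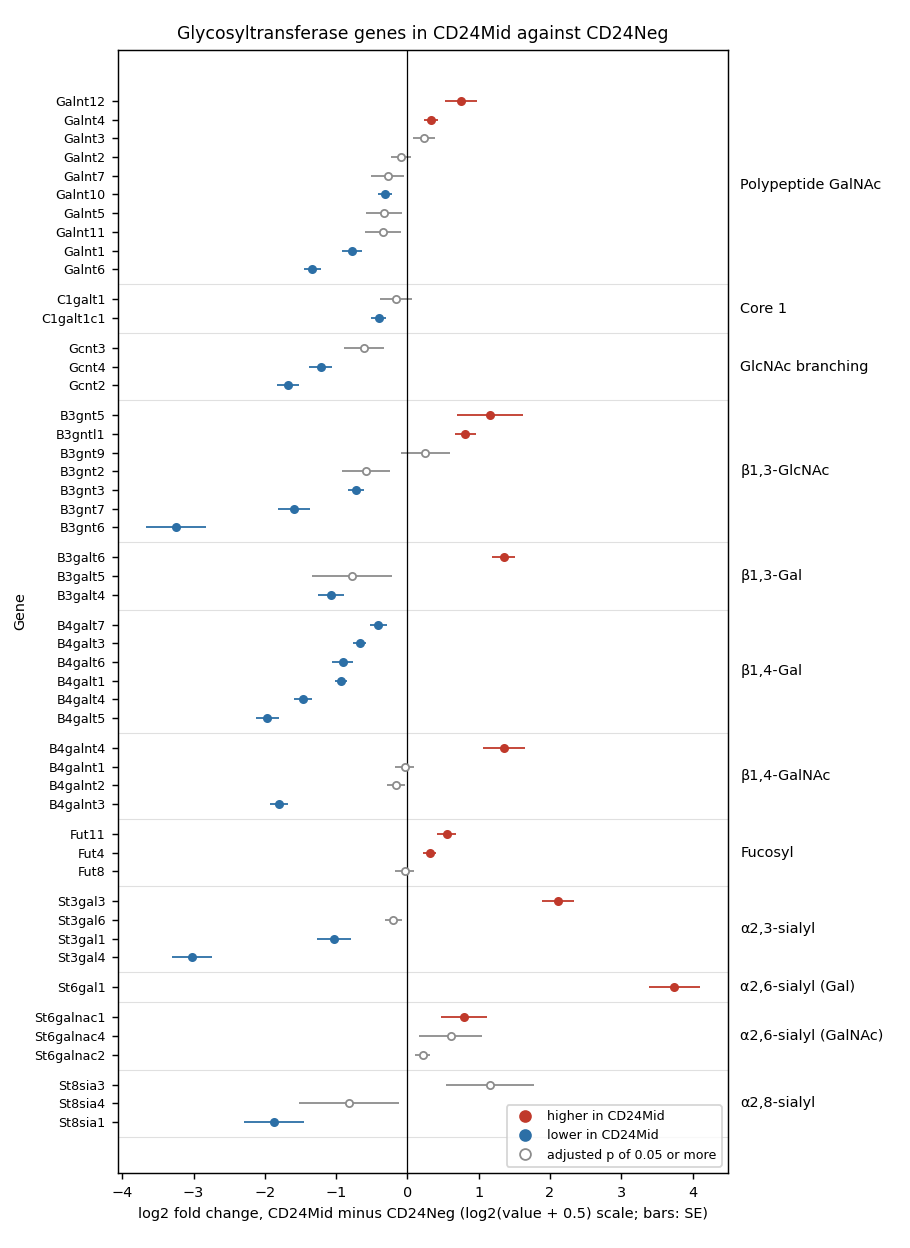
Log2 fold change of each of the 49 tested transferase genes by enzyme class, CD24Mid minus CD24Neg, with its SE as a bar and filled points for genes past an adjusted p of 0.05. All 6 β1,4-galactosyltransferases lie to the left of 0, with B4galt7 turning to 0.02 under scaling to totals that leave out the 20 top genes, and St6gal1 lies farthest to the right.

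The 10 tested polypeptide GalNAc transferases, which start the chains, were divided: 2 were higher in CD24Mid, 3 lower, and 5 did not pass. Galnt6, the most abundant of them per kb of exon, had values of 2919, 2504, 2098 and 2280.3 in CD24Mid and 5717, 6566, 6472 and 5782 in CD24Neg. Every CD24Mid library thus lay below every CD24Neg library, and Galnt6 fell 2.52-fold (log2 fold change -1.33, SE 0.12, adjusted p = 6.01e-06). Galnt12, an enzyme expressed mainly along the digestive tract, had values of 533, 655, 622 and 516 in CD24Mid and 399, 492, 217 and 326 in CD24Neg. It rose 1.68-fold (log2 fold change 0.75, SE 0.22, adjusted p = 0.0121) with no overlap, although the lowest CD24Mid library and the highest CD24Neg library were close. The call of Galnt12 was lost in limma without a filter on low values (0.75, adjusted p = 0.0517). Galnt4, which prefers peptides that already carry GalNAc, was also higher (log2 fold change 0.33, adjusted p = 0.0135), but not without CD24Neg libraries 2 and 8 (0.22, adjusted p = 0.126). It shares 8.25% of its exonic bases with Poc1b on the same strand, which averaged 627 ± 55.2 in CD24Mid and 301 ± 5.38 in CD24Neg. The broadly expressed initiating enzyme Galnt1 was lower, with a mean of 1725 ± 229.6 in CD24Mid and 2970.5 ± 488 in CD24Neg (SD, n = 4 each; log2 fold change -0.78, adjusted p = 0.000844), a call lost under quantile normalization (-0.33, adjusted p = 0.0549). Galnt10 was lower by a small margin (log2 fold change -0.32, adjusted p = 0.016), a direction that turned to 0.05 under quantile normalization and to 0.11 under scaling to totals, and its call was lost without CD24Mid library 5 or CD24Neg library 4. Galnt2, Galnt3, Galnt5, Galnt7 and Galnt11 gave log2 fold changes of -0.34 to 0.23 that did not pass. Galnt7 was called lower without CD24Neg library 2 (-0.49, adjusted p = 0.0472) and without libraries 2 and 8 (-0.58, adjusted p = 0.0496), and Galnt3 higher under scaling to totals (0.66, adjusted p = 0.00475). Nearly all exonic bases of Galnt2, 90%, are shared with the annotated readthrough gene Gm20388, so reads could be divided between the pair.

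Measured per kb of exon, the 10 genes summed to 2393 ± 93.5 value per kb in CD24Mid and 3519 ± 338 in CD24Neg. Galnt6 made up 26.5% ± 4.51 of that sum in CD24Mid and 45.1% ± 1.82 in CD24Neg. Galnt4 made up 14.9% ± 0.435 in CD24Mid and 8.10% ± 0.470 in CD24Neg, and Galnt12 10.7% ± 1.52 in CD24Mid and 4.49% ± 1.48 in CD24Neg. Galnt1 made up 13.03% ± 1.25 in CD24Mid and 15.2% ± 1.57 in CD24Neg. Galnt7 made up 10.4% ± 2.22 in CD24Mid and 8.57% ± 1.68 in CD24Neg, Galnt10 9.90% ± 0.917 in CD24Mid and 8.42% ± 0.671 in CD24Neg, and the other 4 genes less than 10% each in both. Errors are SDs over 4 libraries each, and the shares were not tested.

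**Figure D2:**
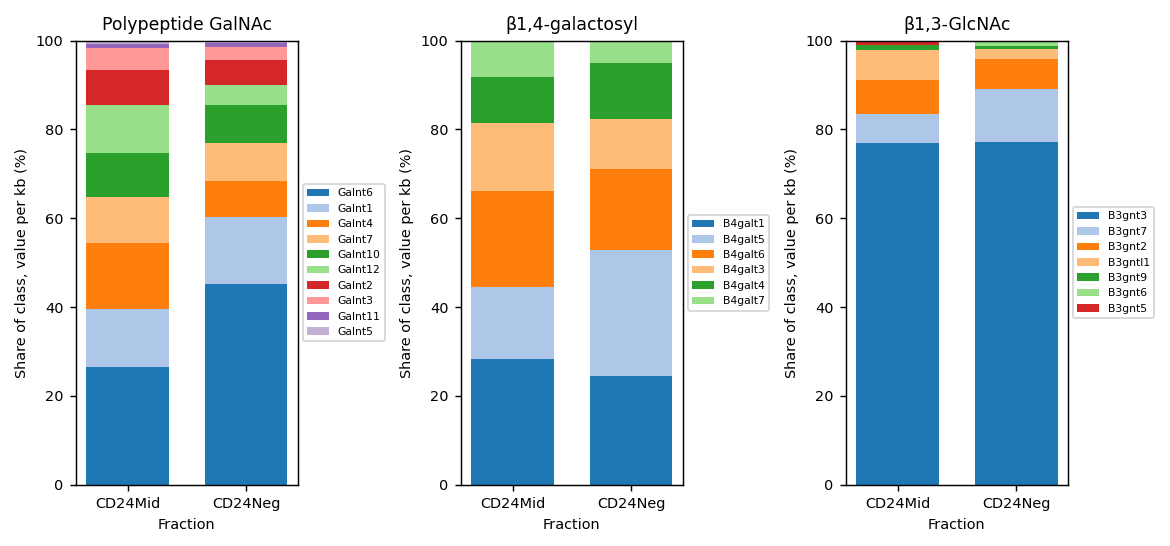
Share of each gene in the summed value per kb of exon of its class, as the mean over 4 libraries of CD24Mid and of CD24Neg, for the polypeptide GalNAc, β1,4-galactosyl and β1,3-GlcNAc classes. Galnt6 makes up 26.5% in CD24Mid and 45.1% in CD24Neg, B4galt5 16.2% in CD24Mid and 28.5% in CD24Neg, and B3gnt3 about the same share, 76.8% in CD24Mid and 77.1% in CD24Neg.

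Core 1 synthesis needs the galactosyltransferase C1galt1 and its chaperone C1galt1c1, known as Cosmc, which keeps the enzyme folded. C1galt1 had values of 218, 239, 372 and 449 in CD24Mid and 292, 355, 369.5 and 355 in CD24Neg. CD24Mid libraries fell on both sides of the CD24Neg range, and the difference did not pass (log2 fold change -0.16, SE 0.22, adjusted p = 0.538). C1galt1c1 had values of 360.2, 365, 341 and 342 in CD24Mid and 469, 539, 409 and 456 in CD24Neg. The chaperone was lower in all 4 CD24Mid libraries (log2 fold change -0.40, SE 0.11, adjusted p = 0.00653), and 0.02 under scaling to totals. Per kb the chaperone was the more abundant of the pair, 243 ± 8.39 in CD24Mid and 323 ± 37.0 in CD24Neg, against 52.4 ± 18.1 for C1galt1 in CD24Mid and 56.3 ± 5.68 in CD24Neg.

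Branching enzymes were lower in CD24Mid for 2 of 3 tested genes. Gcnt4, a core 2 enzyme, had values of 651, 439.8, 656 and 740.3 in CD24Mid and 1219.8, 1359, 1673 and 1474 in CD24Neg, and fell 2.33-fold (log2 fold change -1.22, SE 0.17, adjusted p = 9.7e-05). Gcnt2, which makes the branched I antigen on lactosamine chains, had values of 234, 148, 167 and 199 in CD24Mid and 686, 519, 585 and 569.9 in CD24Neg, and fell 3.18-fold (log2 fold change -1.67, SE 0.16, adjusted p = 7.61e-06). For both genes the fractions were separate by a wide gap. Gcnt3, the mucin-type enzyme that makes core 2 and core 4 branches in the gut, had values of 361, 445, 414 and 359 in CD24Mid and 767, 1000.4, 376 and 448 in CD24Neg. Its CD24Neg libraries were uneven, 2 of them within or near the CD24Mid range, and the difference did not pass (log2 fold change -0.61, SE 0.27, adjusted p = 0.0716). It passed without CD24Neg library 6 (-0.84, adjusted p = 0.0137) and without CD24Neg library 8 (-0.76, adjusted p = 0.0447). Gcnt1, the broadly expressed core 2 enzyme that is prominent in leukocytes, stayed under the minimum, with values of 3.57, 1.20, 0.794 and 3.39 in CD24Mid and 19.5, 13.3, 5.35 and 29.0 in CD24Neg.

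Gcnt3 and Galnt12 were ordered among the CD24Neg libraries like the goblet cell mucin Muc2. Muc2 had values of 8640.2, 8196, 6179.7 and 5817 in CD24Mid and 44948, 60627, 19335 and 24004 in CD24Neg. In both transferases and in Muc2, CD24Neg library 4 was highest, then library 2, then library 8, then library 6, and the summed goblet markers had the same order. Other members shared this order, among them C1galt1c1 and St3gal3, so it was not particular to Gcnt3 and Galnt12. Between the fractions Muc2, Galnt12 and Gcnt3 parted: Muc2 was lower in CD24Mid, Galnt12 higher, and Gcnt3 was not called. The part of goblet cell content in these values was not tested.

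**Figure D3:**
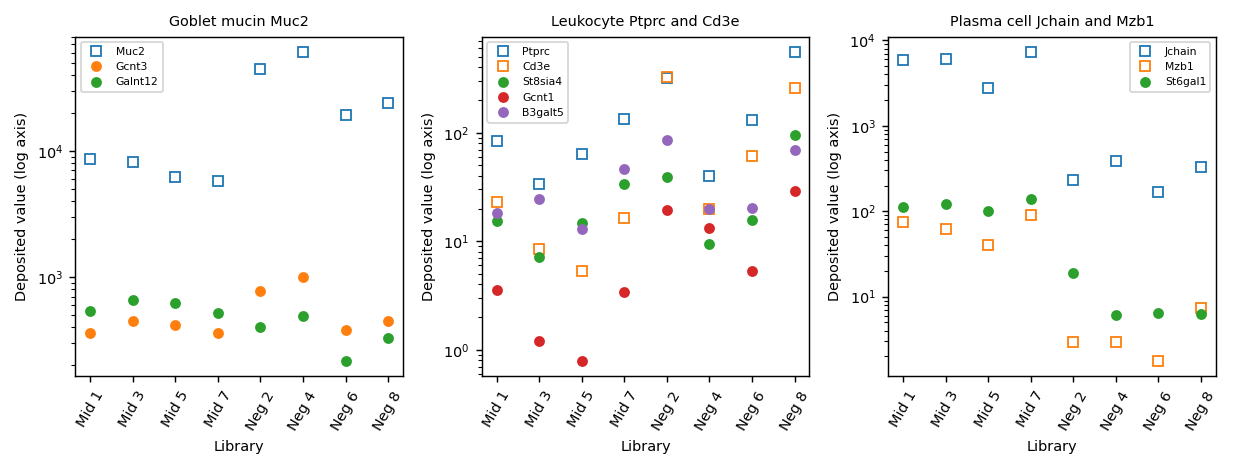
Deposited value in each library on a log axis for members (circles) beside markers of goblet, T lymphocyte and plasma cells (open squares). In CD24Neg, Gcnt3 and Galnt12 follow the order of Muc2, St8sia4, Gcnt1 and B3galt5 are highest in libraries 2 and 8 as Ptprc and Cd3e are, and in CD24Mid both plasma cell genes and St6gal1 are lowest in library 5. Other members share each of these patterns.

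The β1,3-GlcNAc transferases, which lengthen the arms, had 2 members higher in CD24Mid, 3 lower and 2 not called among 7 tested. B3gnt3, which extends core 1 chains, was the most abundant per kb and had values of 1887, 1759.5, 1556 and 1659 in CD24Mid and 2635, 3104, 3123 and 2468 in CD24Neg. It fell 1.65-fold without overlap (log2 fold change -0.72, SE 0.11, adjusted p = 0.000235). The core 3 enzyme B3gnt6 had values of 3.22, 3.13, 1.61 and 1.54 in CD24Mid and 26.5, 16.4, 33.5 and 29.9 in CD24Neg. CD24Mid values thus correspond to a few reads, and the fitted log2 fold change of -3.24 (SE 0.42, adjusted p = 7.28e-05) rests on CD24Neg having passed the minimum. B3gnt7, which extends lactosamine and keratan sulfate chains, also fell, with a mean of 199.6 ± 63.9 in CD24Mid and 591 ± 133 in CD24Neg (log2 fold change -1.59, adjusted p = 0.000125). B3gnt5, which starts the lacto-series glycolipids and so does not act on mucins, had values of 21.2, 28.7, 33.4 and 48.8 in CD24Mid and 21.6, 20.2, 5.31 and 15.7 in CD24Neg. The ranges overlapped, and its call (log2 fold change 1.15, SE 0.46, adjusted p = 0.0472) was lost in 5 of 8 fits that left out a single library, those without CD24Mid library 3, 5 or 7 or CD24Neg library 6 or 8, and adjusted p over the alternatives ran from 0.0142 to 0.269. B3gntl1, a family member by sequence, rose with a mean of 175 ± 17.1 in CD24Mid and 100.1 ± 13.6 in CD24Neg (log2 fold change 0.81, adjusted p = 0.000797). B3gnt2, the main poly-lactosamine enzyme, did not pass with all libraries (log2 fold change -0.58, adjusted p = 0.15) and was lower without CD24Neg libraries 2 and 8 (-1.08, adjusted p = 0.0254). B3gnt9 did not pass.

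The 3 tested β1,3-galactosyltransferases moved in different directions, and 2 of them act outside mucin glycans. B3galt6, which builds the linker that joins proteoglycan chains to protein, had values of 169, 163, 159 and 136 in CD24Mid and 69.8, 62.3, 63.2 and 50.2 in CD24Neg. It rose 2.55-fold with no overlap (log2 fold change 1.35, SE 0.16, adjusted p = 3.99e-05). B3galt4, which adds galactose to gangliosides, had values of 137, 138, 115 and 87.4 in CD24Mid and 294, 232, 271 and 202 in CD24Neg, and fell 2.10-fold (log2 fold change -1.07, SE 0.19, adjusted p = 0.000492). Per kb, B3galt6 supplied 38.5% ± 2.20 of the class in CD24Mid and 10.4% ± 0.735 in CD24Neg. B3galt5, the gastrointestinal enzyme of type 1 chains, had values of 18.1, 24.4, 12.9 and 46.3 in CD24Mid and 85.1, 19.6, 20.3 and 69.5 in CD24Neg. CD24Neg libraries 2 and 8, which were high in T lymphocyte markers, stood above the rest, and the difference did not pass (log2 fold change -0.78, SE 0.57, adjusted p = 0.245). Its sign turned to 0.16 without those 2 libraries.

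The β1,4-galactosyltransferases were lower in CD24Mid for all 6 tested members in limma, with log2 fold changes of -1.97 to -0.41 and no overlap in any, of which B4galt7 alone turned to 0.02 under scaling to totals. B4galt5, which starts lactosylceramide and the glycolipids built on it, had values of 655, 493, 458 and 477 in CD24Mid and 2175, 1882, 2503 and 1608 in CD24Neg. It fell 3.91-fold, the largest change of the class (log2 fold change -1.97, SE 0.16, adjusted p = 2.96e-06). B4galt1, which lengthens N- and O-glycan chains and ranked first of the class per kb in CD24Mid and second to B4galt5 in CD24Neg, had values of 924, 918, 824 and 901 in CD24Mid and 1774, 1641, 1792 and 1606 in CD24Neg. It fell 1.91-fold (log2 fold change -0.93, SE 0.09, adjusted p = 6.61e-06), and the spread within each fraction was small beside the difference. B4galt4 averaged 246 ± 35.8 in CD24Mid and 678 ± 77.4 in CD24Neg (log2 fold change -1.46, adjusted p = 4.99e-06). B4galt6, the other lactosylceramide enzyme, averaged 928 ± 88.0 in CD24Mid and 1761 ± 352 in CD24Neg (log2 fold change -0.91, adjusted p = 0.000306). B4galt3 had a log2 fold change of -0.67 (adjusted p = 7.85e-05), and B4galt7, which acts on the proteoglycan linker like B3galt6 and was lower where that gene was higher, -0.41 (adjusted p = 0.0108). B4galt3 shares 14.5% of its exonic bases with Ppox on the opposite strand, which was also lower in CD24Mid, 386 ± 62.2 in CD24Mid and 771 ± 35.3 in CD24Neg. The library kit does not mark strand, so reads of the shared bases cannot be told apart. Per kb the 6 genes summed to 744 ± 40.2 in CD24Mid and 1654 ± 155 in CD24Neg, and B4galt5 made up 16.2% ± 1.88 of this in CD24Mid and 28.5% ± 3.0 in CD24Neg.

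The promoter of B4galt5 is shown because its fall was among the 3 largest called among members at 10 or more in some library of both fractions and with a RefSeq entry. The sequence is the 250 bases before the RefSeq start in GRCm38.p6 (chr2:167349179-167349428, minus strand), read 5′ to 3′, with matches to the Sp/KLF motif GGGCGG on either strand in capitals. The window held 7 matches, 2 of them overlapping, and 73.2% of its bases were G or C. Of 32851 RefSeq promoter windows of the mouse, 32.7% held at least 1 match.
B4galt5: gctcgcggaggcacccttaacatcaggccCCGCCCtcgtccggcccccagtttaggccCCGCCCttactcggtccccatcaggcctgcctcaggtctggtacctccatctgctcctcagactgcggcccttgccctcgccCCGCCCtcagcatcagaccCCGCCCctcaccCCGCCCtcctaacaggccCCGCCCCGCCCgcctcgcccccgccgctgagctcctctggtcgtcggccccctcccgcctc

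**Figure D4:**
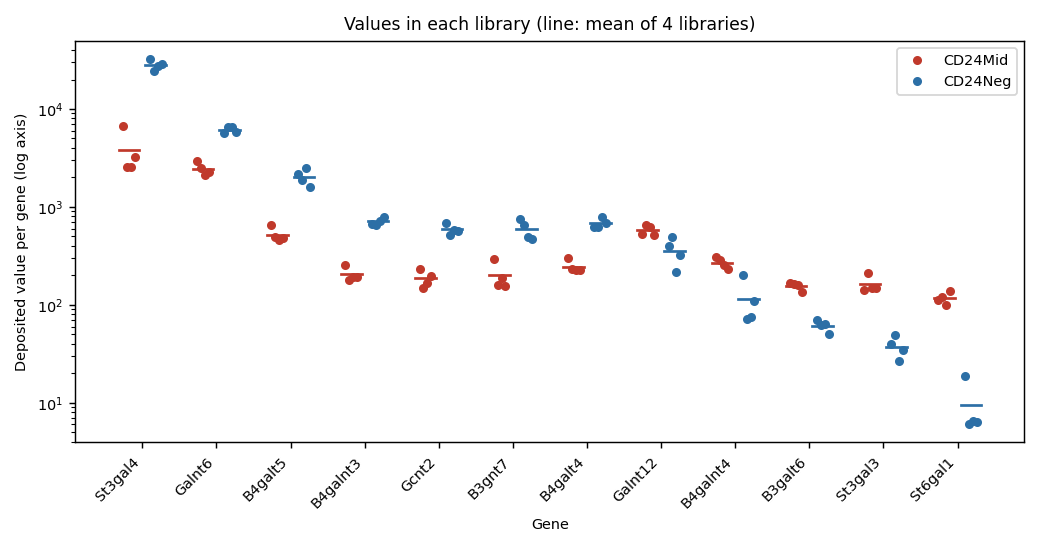
Deposited value in each library on a log axis for 12 members with large called changes or high levels, with a line at the mean of 4 libraries and CD24Mid left of CD24Neg for each gene. St3gal4 and Galnt6 are the highest and lower in CD24Mid, while the 4 CD24Mid values of St6gal1, 100.5 to 139, lie above its CD24Neg values of 6.08 to 18.7.

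The 4 β1,4-GalNAc transferases include 2 of the 3 most abundant members per kb, and neither of these passed the test. B4galnt2, which makes the Sda antigen of intestinal glycoproteins, had values of 4051, 3705, 4268 and 3968 in CD24Mid and 4100.3, 4794, 5401 and 3749 in CD24Neg. The fractions overlapped, and the difference did not pass (log2 fold change -0.16, SE 0.13, adjusted p = 0.278), but the call depended on the setting: it was higher under quantile normalization (0.35, adjusted p = 0.0171) and under scaling to totals (0.27, adjusted p = 0.0473), and lower without CD24Neg libraries 2 and 8 (-0.37, adjusted p = 0.0273). B4galnt1, the ganglioside enzyme, averaged 5470.5 ± 855 in CD24Mid and 5584 ± 573 in CD24Neg (log2 fold change -0.04, SE 0.13, adjusted p = 0.818). It was higher under quantile normalization (0.45, adjusted p = 0.00527) and under scaling to totals (0.39, adjusted p = 0.018).

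B4galnt3 and B4galnt4, which both add GalNAc to make the LacdiNAc group, went in opposite directions. B4galnt3 had values of 257, 178, 193 and 192 in CD24Mid and 676, 656, 719 and 789.9 in CD24Neg, and fell 3.48-fold (log2 fold change -1.80, SE 0.13, adjusted p = 1.64e-06). B4galnt4 had values of 307, 284, 256 and 231 in CD24Mid and 202, 71.9, 75.1 and 109.9 in CD24Neg, and rose 2.56-fold (log2 fold change 1.35, SE 0.30, adjusted p = 0.00226). Neither overlapped between the fractions. Per kb, B4galnt3 reached 54.3 ± 9.41 in CD24Mid and 188 ± 15.7 in CD24Neg, and B4galnt4 70.0 ± 8.51 in CD24Mid and 29.8 ± 15.7 in CD24Neg, so B4galnt4 was the higher of the pair in CD24Mid and B4galnt3 in CD24Neg.

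The promoters of both genes are printed because they were among the 3 largest called changes in their direction, of members at 10 or more in some library of both fractions and with a RefSeq entry. They are the 250 bases before the RefSeq start in GRCm38.p6, for B4galnt4 chr7:141060728-141060977, plus strand, and for B4galnt3 chr6:120294898-120295147, minus strand, with Sp/KLF matches (GGGCGG, both strands) in capitals. B4galnt3 held 3 matches and 10 CpG dinucleotides. B4galnt4 held 30 CpG dinucleotides, against a median of 6 over all windows, and none of the motifs searched.
B4galnt4: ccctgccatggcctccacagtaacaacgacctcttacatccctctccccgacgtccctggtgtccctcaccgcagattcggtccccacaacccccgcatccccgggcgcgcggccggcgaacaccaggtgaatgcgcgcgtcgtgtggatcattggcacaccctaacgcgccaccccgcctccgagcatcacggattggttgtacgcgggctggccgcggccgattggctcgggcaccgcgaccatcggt
B4galnt3: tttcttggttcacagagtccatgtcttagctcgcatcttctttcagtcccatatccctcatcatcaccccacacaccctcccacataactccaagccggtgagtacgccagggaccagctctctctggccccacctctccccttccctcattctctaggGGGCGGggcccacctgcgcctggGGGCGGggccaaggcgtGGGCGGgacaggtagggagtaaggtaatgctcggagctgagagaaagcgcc

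Among the fucosyltransferases, which add the terminal or branch fucose of blood group and Lewis antigens, 2 of 3 tested genes were higher in CD24Mid by small margins. Fut4, an α1,3-enzyme of Lewis x type structures, had values of 420.1, 415, 409.6 and 420.1 in CD24Mid and 370.5, 317, 333 and 323 in CD24Neg. The values within CD24Mid were very even, and the 1.24-fold rise passed (log2 fold change 0.31, SE 0.09, adjusted p = 0.0131). Fut11, assigned to the same α1,3-family by sequence, had values of 138, 143, 139.7 and 150.0 in CD24Mid and 91.0, 91.3, 98.2 and 109 in CD24Neg, and rose 1.46-fold (log2 fold change 0.55, SE 0.13, adjusted p = 0.00408), a call lost under quantile normalization (0.29, adjusted p = 0.08). Fut8, which adds the core fucose of N-glycans and was the most abundant of the class per kb, had values of 1343, 1319.5, 1519 and 1438 in CD24Mid and 1331, 1463, 1826 and 1213 in CD24Neg. CD24Mid values lay inside the CD24Neg range, and the difference did not pass (log2 fold change -0.04, SE 0.13, adjusted p = 0.798), but Fut8 was called higher under quantile normalization (0.32, adjusted p = 0.027) and scaling to totals (0.39, adjusted p = 0.0102).

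Fut2, the secretor enzyme, adds the α1,2-fucose of H antigens, the kind of structure that UEA binds. It was low in both fractions, with values of 6.89, 7.14, 13.1 and 7.43 in CD24Mid and 4.60, 6.11, 0.687 and 2.60 in CD24Neg. All 4 CD24Mid libraries lay above all 4 CD24Neg libraries (exact two-sided permutation p = 0.0286, the smallest that 4 against 4 allows, unadjusted). The fractions were separate, in either direction, for 63.8% of all tested genes, so this was not particular to Fut2. In limma without a filter on low values the log2 fold change of Fut2 was 1.40 (adjusted p = 0.0893), which did not pass. Fut1, its close paralog that also makes the H antigen, had values of 7.38, 9.86, 13.03 and 18.1 in CD24Mid and 0, 0, 1.79 and 2.67 in CD24Neg, and was called higher in that fit without a filter (log2 fold change 3.36, adjusted p = 0.00864). Fut1 and Fut2 are paralogs, and how the authors' counting divided reads between them was not examined. In CD24Neg all values of both genes stood at a few reads or fewer.

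The sialyltransferases held the largest changes in both directions among members at 10 or more in some library of both fractions. In CD24Neg, St6gal1 met this condition through library 2 alone. St3gal4 (ENSMUSG00000032038), which caps galactose with α2,3-linked sialic acid on glycoproteins, was the most abundant of the 49 members per kb in CD24Neg, at 9698 ± 1101, and in CD24Mid, at 1296 ± 680.5, it came after B4galnt2 and B4galnt1. It had values of 6732, 2579.8, 2575 and 3267 in CD24Mid and 32405, 24646, 27518 and 28815 in CD24Neg. Library 1 was high within CD24Mid, yet still far below every CD24Neg library, and St3gal4 fell 8.11-fold (log2 fold change -3.02, SE 0.28, adjusted p = 6.72e-06). Over the alternatives the log2 fold change ran from -3.33 to -2.28. The opposite-strand gene 4930581F22Rik shares 14.1% of its exonic bases and was also lower, 72.6 ± 13.3 in CD24Mid and 253 ± 52.5 in CD24Neg. The enterocyte markers were lower in CD24Mid as well, by the sums given above. Their part in this difference was not tested.

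St3gal3, another α2,3-enzyme with a preference for type 1 chains, was higher in CD24Mid. It had values of 142, 211, 149.8 and 147 in CD24Mid and 39.8, 48.9, 26.5 and 34.8 in CD24Neg, and rose 4.33-fold (log2 fold change 2.11, SE 0.23, adjusted p = 1.93e-05). St3gal1, which sialylates the core 1 disaccharide itself, was lower, with a mean of 137 ± 18.4 in CD24Mid and 291 ± 93.6 in CD24Neg (log2 fold change -1.03, adjusted p = 0.00354). St3gal6 averaged 550.0 ± 40.2 in CD24Mid and 634 ± 84.8 in CD24Neg and did not pass (log2 fold change -0.20, adjusted p = 0.165), but was lower without CD24Neg library 8 (-0.30, adjusted p = 0.0284). Per kb, St3gal4 made up 87.0% ± 4.88 of the class in CD24Mid and 98.4% ± 0.374 in CD24Neg, and St3gal3 4.64% ± 2.09 in CD24Mid and 0.140% ± 0.0454 in CD24Neg. The class as a whole summed to 1464 ± 677 per kb in CD24Mid and 9856 ± 1095 in CD24Neg.

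St6gal1 (ENSMUSG00000022885), which adds α2,6-linked sialic acid to galactose, mainly on N-glycans, showed the largest rise of all tested members. It had values of 113, 121, 100.5 and 139 in CD24Mid and 18.7, 6.08, 6.50 and 6.31 in CD24Neg. Library 2 was high within CD24Neg and still far under CD24Mid, and St6gal1 rose 13.4-fold (log2 fold change 3.75, SE 0.36, adjusted p = 9.28e-06). Over the alternatives the log2 fold change ran from 3.38 to 4.16. Plasma and B cell markers were higher in CD24Mid too: Jchain, the joining chain of secreted immunoglobulin, had values of 5937, 6065, 2782 and 7263 in CD24Mid and 232, 389, 168 and 330.5 in CD24Neg. Mzb1, a plasma cell chaperone, had values of 74.2, 61.2, 39.9 and 90.9 in CD24Mid and 2.91, 2.91, 1.78 and 7.38 in CD24Neg. St6gal1 is also expressed by B lineage cells, and like Jchain and Mzb1 it was lowest in library 5 and highest in library 7 of CD24Mid. Galnt10 and B3galt5 were lowest and highest in the same libraries. Within CD24Neg, St6gal1 was highest in library 2, Jchain in library 4 and Mzb1 in library 8. The part of B lineage cells in the St6gal1 difference was not tested.

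The promoters of the most changed sialyltransferase genes are shown by the same rule. Each is the 250 bases before a RefSeq start in GRCm38.p6, read 5′ to 3′ on the gene's strand. RefSeq gave 3 starts for St6gal1 (chr16:23224490-23224739, plus strand, window 1; chr16:23225771-23226020, plus strand, window 2; and chr16:23290220-23290469, plus strand, window 3), 1 for St3gal3 (chr4:118134947-118135196, minus strand) and 1 for St3gal4 (chr9:35116865-35117114, minus strand). Motif matches are in capitals: the GATA factor motif, spelled AGATAA, in St6gal1, and GGGCGG (Sp/KLF) on either strand in St3gal3 and St3gal4.
St6gal1 window 1: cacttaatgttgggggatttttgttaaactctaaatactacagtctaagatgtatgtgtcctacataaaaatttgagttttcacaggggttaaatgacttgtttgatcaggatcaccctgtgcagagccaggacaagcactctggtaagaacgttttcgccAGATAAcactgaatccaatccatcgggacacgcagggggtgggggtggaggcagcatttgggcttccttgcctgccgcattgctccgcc
St6gal1 window 2: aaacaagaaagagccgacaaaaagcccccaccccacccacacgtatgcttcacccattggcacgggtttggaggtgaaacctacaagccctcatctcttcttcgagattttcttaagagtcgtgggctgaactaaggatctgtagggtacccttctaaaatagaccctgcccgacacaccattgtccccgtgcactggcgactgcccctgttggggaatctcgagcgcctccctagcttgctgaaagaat
St6gal1 window 3: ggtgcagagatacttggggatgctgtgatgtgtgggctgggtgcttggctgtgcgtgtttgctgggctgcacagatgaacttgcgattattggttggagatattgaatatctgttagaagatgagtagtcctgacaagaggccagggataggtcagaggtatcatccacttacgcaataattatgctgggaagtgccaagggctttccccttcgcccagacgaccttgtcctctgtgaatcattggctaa
St3gal3: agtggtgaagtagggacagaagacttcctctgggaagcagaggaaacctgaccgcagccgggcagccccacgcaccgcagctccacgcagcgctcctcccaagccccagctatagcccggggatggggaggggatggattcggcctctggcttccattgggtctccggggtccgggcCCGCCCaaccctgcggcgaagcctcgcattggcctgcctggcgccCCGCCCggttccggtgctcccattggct
St3gal4: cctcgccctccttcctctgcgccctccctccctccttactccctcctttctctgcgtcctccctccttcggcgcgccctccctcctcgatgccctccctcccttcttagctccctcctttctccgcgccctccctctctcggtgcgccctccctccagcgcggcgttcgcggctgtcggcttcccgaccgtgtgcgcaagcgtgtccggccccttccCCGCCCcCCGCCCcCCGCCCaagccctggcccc

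The St6gal1 windows were poorer in G and C (47.2%, 52.8% and 49.6%) than those of St3gal3 (68.4%) and St3gal4 (72.8%). St3gal4 had 3 Sp/KLF matches in a row within the last bases before its start, and St3gal3 had 2. The GATA match of St6gal1 lay in window 1, and 9.99% of all windows held one. Both strands of the windows of these 3 genes and of B4galt5, B4galnt3 and B4galnt4 were also searched for TATAAA (the core promoter box, 12.4% of all windows), CACGTG (E-box, 6.02%), CAAAGTCCA (HNF4A, 0.384%), GTTAAT (HNF1, 6.43%), TTTATNG (CDX2, 9.81%) and TGACGTCA (CREB, 1.55%), and these letters were not in them. Promoter entries were found for 35 of the 49 tested members.

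Enzymes that add α2,6-linked sialic acid to GalNAc were led by St6galnac2, which held 96.8% ± 0.668 of the class per kb in CD24Mid and 97.8% ± 0.601 in CD24Neg. St6galnac2 had values of 1892, 1926, 1816 and 1499 in CD24Mid and 1542, 1527, 1653 and 1417 in CD24Neg. CD24Mid library 7 lay within the CD24Neg range, and the difference did not pass (log2 fold change 0.21, SE 0.11, adjusted p = 0.0977). It passed without that library (0.30, adjusted p = 0.0249), under quantile normalization (0.61, adjusted p = 0.000499) and under scaling to totals (0.64, adjusted p = 0.000154). The opposite-strand gene 1810032O08Rik shares 8.58% of the exonic bases of St6galnac2. It averaged 196 ± 22.5 in CD24Mid and 68.3 ± 18.9 in CD24Neg. St6galnac1, which makes the sialyl-Tn antigen, had values of 23.3, 13.8, 16.5 and 20.7 in CD24Mid and 9.31, 11.2, 8.25 and 12.97 in CD24Neg. Its adjusted p of 0.0499 (log2 fold change 0.80, SE 0.32) stood at the threshold, and the call was lost in 6 of 8 fits that left out a single library, those without CD24Mid library 1, 5 or 7 or CD24Neg library 2, 4 or 6. St6galnac4 had values of 13.3, 23.5, 11.2 and 15.4 in CD24Mid and 17.7, 8.24, 5.11 and 12.3 in CD24Neg, with overlap (log2 fold change 0.61, SE 0.44, adjusted p = 0.244), and passed without CD24Neg libraries 2 and 8 (1.15, adjusted p = 0.0441).

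The α2,8-sialyltransferases, which chain sialic acids on gangliosides and a few glycoproteins, were low, with 3.61 ± 0.959 per kb over the 3 tested genes in CD24Mid and 5.60 ± 1.08 in CD24Neg. St8sia1, the GD3 ganglioside enzyme, had values of 4.59, 3.04, 6.25 and 8.90 in CD24Mid and 20.7, 22.9, 28.3 and 13.9 in CD24Neg, with a fitted log2 fold change of -1.87 (SE 0.42, adjusted p = 0.00252). It reached the minimum of 10 in CD24Neg libraries alone, so its direction was partly set by the filter. St8sia4, a polysialyltransferase found in leukocytes among other cells, had values of 15.3, 7.15, 14.8 and 33.8 in CD24Mid and 39.2, 9.51, 15.8 and 95.5 in CD24Neg. CD24Neg libraries 2 and 8 were high, as they were for Ptprc, which encodes CD45, with values of 83.9, 33.5, 63.2 and 133 in CD24Mid and 316, 40.0, 129.7 and 551 in CD24Neg. St8sia4 did not pass (log2 fold change -0.82, SE 0.70, adjusted p = 0.317), and its sign turned without those 2 libraries (0.29, adjusted p = 0.679). Gcnt1 and the leukocyte fucosyltransferase Fut7, with values of 3.25, 4.72, 1.68 and 1.08 in CD24Mid and 11.4, 2.91, 1.84 and 8.95 in CD24Neg, were also highest in CD24Neg libraries 2 and 8. Other members shared this, among them St3gal4 and B4galnt4, so it was not particular to genes found in leukocytes. The part of T lymphocytes in the values of St8sia4, Gcnt1 and Fut7 was not tested. St8sia3 had values of 16.2, 26.5, 34.1 and 22.3 in CD24Mid and 11.1, 40.3, 5.83 and 4.32 in CD24Neg, with CD24Neg library 4 above all others (log2 fold change 1.15, SE 0.62, adjusted p = 0.122), and was higher without that library (1.78, adjusted p = 0.00511).

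In all, 22 enzyme genes stayed below the minimum. In limma without a filter, 13.1% of all genes below the minimum passed. Among these enzyme genes Fut1, described above, B3gnt8 and St8sia6 were higher and Gcnt1 was lower. B3gnt8, a poly-lactosamine enzyme, had values of 12.4, 8.55, 15.6 and 10.4 in CD24Mid and 6.50, 2.78, 0.665 and 2.57 in CD24Neg (log2 fold change 1.99, adjusted p = 0.0225). St8sia6, which chains sialic acid on O-glycans, had values of 7.04, 6.54, 7.83 and 25.9 in CD24Mid, and in CD24Neg it was listed at 0 in 3 libraries and at 1.05 in library 4 (adjusted p = 0.00157). The fall of Gcnt1 had a log2 fold change of -2.60 (adjusted p = 0.0139). Of the 2 antisense RNAs, St8sia3os was lower (adjusted p = 0.000653), with values under 0.01 in every CD24Mid library and 0.706 to 2.10 in CD24Neg, and Galnt6os had 0.985 to 6.0 in CD24Mid, against 8.08 to 13.7 in CD24Neg. The remaining enzyme genes below the minimum were B3galt1, B3galt2, B3gnt4, B4galt2, Fut10, Galnt13 to Galnt16, Galnt9, Gcnt7, St3gal2, St3gal5, St6galnac3, St6galnac5 and St6galnac6. St3gal2, at 4.54 to 18.7, was the highest of them, and the others stayed at 10.2 or less in every library.

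The mucin substrates that these enzymes decorate were themselves unequal between the fractions. Of 4 tested mucin genes, the secreted Muc2 and the membrane mucins Muc3 and Muc13 were lower in CD24Mid, and the membrane mucin Muc4 was higher. Muc13 had a mean of 18135 ± 3017 in CD24Mid and 44757 ± 8283 in CD24Neg (log2 fold change -1.30, adjusted p = 7.25e-05), and Muc3 3214 ± 958 in CD24Mid and 14429 ± 3169 in CD24Neg (log2 fold change -2.19, adjusted p = 1.49e-05). Muc4 had a mean of 3008 ± 857 in CD24Mid and 1145 ± 335 in CD24Neg (log2 fold change 1.39, adjusted p = 0.000362).

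Transferases use activated sugars made in the cytosol, or for sialic acid in the nucleus, and carried into the Golgi by transporters of the Slc35 family. Of 35 genes for that supply found in the files, 34 were tested, with 3 higher in CD24Mid, 20 lower and 11 not called, where 68.3% of all tested genes were called, 34.3% higher and 34.0% lower. Their median log2 fold change was -0.53, against 0.02 for all genes. Scaling to totals, with its shift of all genes, gave 11 higher and 11 lower. The largest falls were those of Npl, Slc35c2 and Uap1l1. Npl reached the minimum value in CD24Neg libraries alone, so its difference was partly set by the filter. Npl, the lyase that breaks down sialic acid, had values of 1.84, 5.12, 2.81 and 7.37 in CD24Mid and 21.1, 104, 55.0 and 47.4 in CD24Neg (log2 fold change -3.52, SE 0.55, adjusted p = 0.000247). Slc35c2, a Golgi transporter linked to fucosylation, had values of 509, 414, 348 and 381 in CD24Mid and 2907, 3495, 3941 and 3138 in CD24Neg (log2 fold change -3.03, SE 0.14, adjusted p = 2.39e-07). Uap1l1, a relative of the enzyme that makes UDP-GlcNAc, had values of 271, 219, 192 and 209 in CD24Mid and 1665, 1974, 1736 and 1529.8 in CD24Neg (log2 fold change -2.96, SE 0.13, adjusted p = 1.81e-07). For Slc35c2 and Uap1l1 the fractions lay far apart.

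The 3 genes called higher stood against that trend, and 2 of them, Slc35a1 and Nans, belong to the sialic acid branch. Slc35a1, the CMP-sialic acid transporter, had values of 401, 474, 419.5 and 456 in CD24Mid and 232, 252, 215 and 217 in CD24Neg (log2 fold change 0.93, SE 0.11, adjusted p = 2.86e-05). Slc35b4, which carries UDP-xylose and UDP-GlcNAc, had values of 372, 364, 336 and 362 in CD24Mid and 211, 175, 188 and 182 in CD24Neg (log2 fold change 0.92, SE 0.11, adjusted p = 3.12e-05). Nans, the sialic acid synthase, had values of 1474, 1606, 1184 and 1349 in CD24Mid and 1177, 1146, 872 and 1250.2 in CD24Neg, with overlap, and was called by a narrow margin (log2 fold change 0.34, SE 0.14, adjusted p = 0.0488) that did not hold in 6 of 8 fits without a single library. Gne, which makes the first committed precursor of sialic acid, had a log2 fold change of 0.01 (SE 0.09, adjusted p = 0.942), and Cmas, which activates it, 0.17 (SE 0.10, adjusted p = 0.172). Among the genes of mannose precursors, those that fell included Mpi (log2 fold change -1.33, adjusted p = 5.84e-06), Gmppa (-1.18, adjusted p = 3.13e-06) and Gmppb (-1.14, adjusted p = 6.9e-06), and Galt of galactose use fell as well (-1.45, adjusted p = 1.58e-05).

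**Figure D5:**
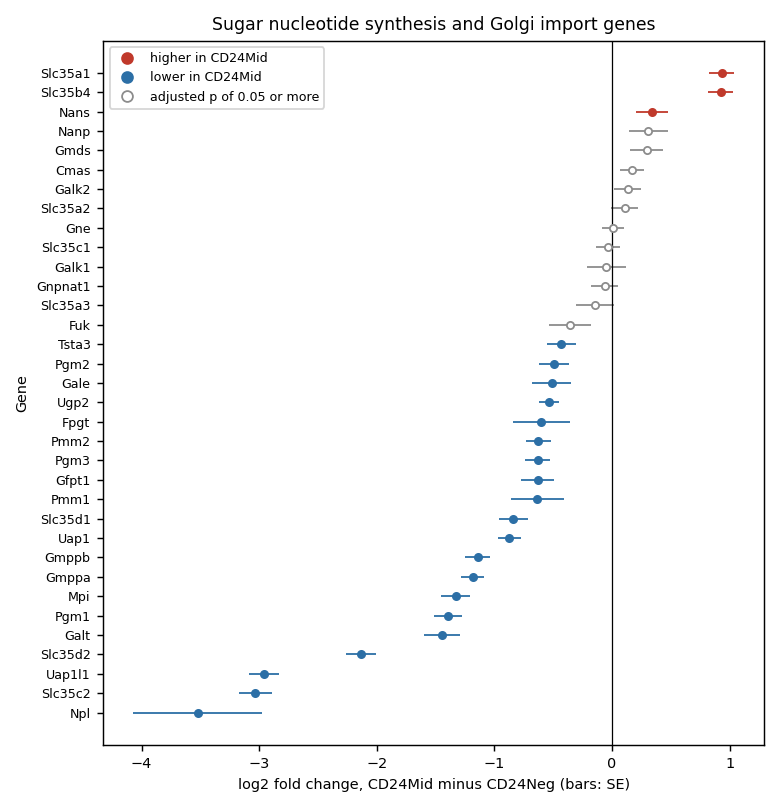
Log2 fold change of the 34 tested genes of sugar nucleotide synthesis and Golgi import, CD24Mid minus CD24Neg, with SE bars and filled points past an adjusted p of 0.05. Slc35a1, Slc35b4 and Nans are higher in CD24Mid, and 20 genes are lower, led by Npl, Slc35c2 and Uap1l1. Npl reached the minimum value in CD24Neg libraries alone. Under scaling to totals that leave out the 20 top genes, 11 genes are higher and 11 lower.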

How the data were processed

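Total RNA of flow-sorted mouse small intestinal epithelium was prepared with the miRNeasy and TruSeq RNA kits, per the labels' protocols, giving 4 CD24Mid and 4 CD24Neg libraries grouped by their labelled sample group. The authors deposited normalised signal values, 1 estimate per Ensembl gene and library. Bowtie 0.12.8 and the build NCBIM37 are named in the submitters' processing notes, which name neither the annotation release nor the normalising tool. Low values lay on even steps, from which the worth of 1 read was read, but only 59.4 to 62.3% of low values came within 0.1 read of a whole number, so no count model was used and the branch of the design for values without counts applied.

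Genes at 10 or more in at least 4 libraries were kept, centred on the median ratio to the geometric mean library, and fitted as log2(value + 0.5) with limma 3.58.1 under R 4.3.3 (trend and robust variance, no covariate, 6 residual degrees of freedom), with Benjamini-Hochberg adjustment over all 12906 tested genes and a threshold of 0.05. The fit was tested on simulated data. A fold change on this scale understates that of low genes. Fut2 was compared with an exact permutation test in R. The members and gene lists were chosen with earlier results of these data known. Values in every library are given for Fut2, for the called member with the largest change in each direction and the highest level per kb of each class, for all genes of classes with 3 or fewer tested members, and for 3 supply genes per direction. Other genes with values in every library (Gcnt1, Fut1, Fut7, B3gnt8, St8sia6, Muc2, Ptprc, Jchain and Mzb1) were chosen after their values were seen, as were the other mucin and supply genes named.

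Symbols came from GENCODE M21 by Ensembl identifier, for 21223 of 23318 genes. Levels per kb use M21 exon lengths, which may differ from the authors' annotation. Promoters are from RefSeq (GRCm38.p6) and are printed for the 3 largest called changes in each direction among members at 10 or more in some library of both fractions with an entry. Alternatives were other scalings (quantile, none, totals without the 20 most abundant genes), filters, pseudocounts and variance models, a test against a fold change of 1.5, thinning to the lowest depth, leaving out each library or CD24Neg libraries 2 and 8 and, chosen after seeing the data, neighbouring title numbers as a block.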

Additional observations from a re-analysis of the deposited data

Results flagged for a closer look

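Of 100 groups of 4 libraries tested, 8 had 1 library far from the other 3 by Dixon's criterion, where chance flags about 1 in 20. In CD24Mid, St3gal4 stood at 6732 in library 1 with the others at 2575 to 3267, and B4galt4 at 299.8 in library 1 with the others at 226 to 229.8. St3gal3 stood at 211 in library 3, with the others at 142 to 149.8, and Galnt10 at 1254 in library 5, with the others at 1445 to 1477. Fut2 stood at 13.1 in library 5, with the others at 6.89 to 7.43, and St3gal6 at 489.8 in library 7, with the others at 568 to 573. In CD24Neg, St6gal1 stood at 18.7 in library 2, with the others at 6.08 to 6.50, and Galnt11 at 370.0 in library 6, with the others at 179 to 192. For St3gal4, St3gal3, St6gal1 and B4galt4 the fractions did not overlap despite that library.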

How the results depend on the processing

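Beside the main fit 21 alternatives were run, and over 55 named genes 1037 results kept direction and side of the threshold, 50 lost the call, 18 gained one and 26 reversed. Of 31 called members, 24 kept the call under all scalings, 26 with any single library left out, 27 without CD24Neg libraries 2 and 8, 20 under all of these, without a filter and under the pseudocount, depth and variance settings, and 16 when tested against a fold of 1.5. The count of 20 takes in neither the filter of 10 or more in all libraries nor the fit with neighbouring titles as a block. In the test against a fold of 1.5, 4 members were higher and 12 lower, and 2 supply genes were higher and 10 lower. Of all 12906 genes, 2430 were higher and 2360 lower there. Scaling to totals that leave out the 20 top genes gave 17 members higher, with 11 supply genes higher and 11 lower, and raised the share of all calls that were higher in CD24Mid to 69.6%, against 50.2% in the main fit. Quantile normalization gave 7 supply genes higher and 15 lower, beside 4593 higher and 4052 lower of all genes. With 1 library left out, 9 to 11 members were higher and 17 to 20 lower, and 2 to 3 supply genes were higher and 17 to 19 lower. Of all genes, 3882 to 4306 were higher and 3970 to 4266 lower in those fits. Without CD24Neg libraries 2 and 8, 10 members were higher and 22 lower, beside 4100 higher and 4030 lower of all 12457 genes tested there.

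Log2 fold changes that reversed under scaling to totals were those of B4galnt1 (0.39), B4galnt2 (0.27), Galnt10 (0.11), Fut8 (0.39), B4galt7 (0.018), St3gal6 (0.23), Galnt5 (0.10), Galnt7 (0.15), Galnt11 (0.082), C1galt1 (0.27), C1galt1c1 (0.023) and Galnt2 (0.34). Under quantile normalization they were B4galnt1 (0.45), B4galnt2 (0.35), Galnt10 (0.051), Fut8 (0.32), Galnt7 (0.071), B3gnt9 (-0.012) and Galnt2 (0.13). Scaling to totals moved the median of all genes by 0.42 by construction, and quantile normalization moved it by 0.042. Quantile normalization moved single genes both ways, B4galnt1 from -0.04 to 0.45 and Galnt5 from -0.33 to -0.61. With libraries left out, B4galnt1 ran from -0.12 to 0.034 (above 0 without CD24Mid library 5 or 7), Fut8 from -0.13 to 0.071 (above 0 without CD24Neg library 6), C1galt1 from -0.34 to 0.0068 (above 0 without CD24Mid library 1) and Galnt2 from -0.18 to 0.015 (above 0 without CD24Mid library 3). Without CD24Neg libraries 2 and 8, St8sia4 (0.29) and B3galt5 (0.16) reversed. The cause was not tested.

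B3gnt6, St8sia1 and the supply gene Npl fell below the minimum when a CD24Neg library was left out and gave no value there. The fractions share no title number, so the labels give no pairs. Neighbouring titles (1 and 2, 3 and 4, 5 and 6, 7 and 8) nevertheless deviated together from the means of their fractions, with correlations over 12906 genes of 0.28 to 0.33, against -0.26 to 0.03 for the other combinations, a hint from the data and not from the design. With these neighbours as a block, a fit chosen after seeing the data, 11 members were higher and 22 lower, and 4 supply genes were higher and 21 lower, beside 4771 higher and 4733 lower of all genes. Gcnt3 (-0.61, adjusted p = 0.0421), B3gnt2 (-0.58, adjusted p = 0.0166) and St6galnac2 (0.21, adjusted p = 0.0472) gained a call there, and St6galnac1 lost its call (0.80, adjusted p = 0.0736). Low values are limited by depth, most in CD24Neg, where 1 read was worth up to 1.77.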
